A study of Mus musculus with 34 samples.

Results

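The genes described here are 33 regulators of chromatin and transcription whose human counterparts are linked to autism. They were taken by symbol from a fixed list of 33 names, and 33 of 33 were found among the 18548 genes of the deposited mouse brain table. The list was chosen by hand with results of these data known, and its measured basis was the level of Phf21a in heterozygote against wild-type hippocampus. That comparison, and every hippocampal level of Phf21a, is therefore described without a test, and Phf21a is left out of the counts over members in regional contrasts with hippocampus.

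RNA was sequenced from the striatum (Str), the hippocampus (Hip) and the prefrontal cortex (PFC) of male C57BL/6J mice at postnatal day 56. Untreated mice labelled Myt1l heterozygote (HT) gave 6 striatal, 5 hippocampal and 5 PFC libraries, and untreated wild-type mice (WT) gave 6 libraries for each region. MYT1L is a zinc-finger protein that keeps neuronal identity in neurons, and the labels do not describe the mutant allele. They also do not say that the libraries of a group came from separate mice, so p-values measure the spread between libraries. Column codes recur between regions, and the code 31-67M stands on a WT library of the PFC (replicate 6) and on HT libraries of hippocampus (replicate 1) and striatum (replicate 1). Groups follow the sample labels, and some results that change without one of these 3 libraries are given below.

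Chromatin regulators decide which stretches of DNA can be read. Remodelling enzymes move nucleosomes, writers and erasers add or remove marks on histones, readers dock on those marks, and coregulators link DNA-bound transcription factors to the transcription machinery. Many of these proteins are needed in a full gene dose in the developing brain, and loss of a single copy of the human gene is a known cause of neurodevelopmental disorders. The adult brain keeps expressing them in neurons and glia.

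The 34 libraries held between 25786041 and 29798959 normalized counts, the deposited unit, in which reads per gene are corrected for the size of each library. Totals were lowest in striatum, at 25786041 to 27313394, and highest in PFC, at 29092563 to 29798959. Marker lists matched the dissections, since the lists of striatal, hippocampal and PFC projection neurons each had their highest summed level in their own region and no marker was at 0 in a whole group. The striatal libraries varied in PFC projection neuron markers (8 of 8 detected), which summed to 3859 to 14287 normalized counts in HT striatum and 4057 to 15309 in WT striatum. Myt1l itself averaged 8162 ± 954 normalized counts in HT and 7675 ± 552 in WT striatum (SD, n = 6 each), 6896 ± 385 in HT (n = 5) and 6216 ± 594 in WT hippocampus (n = 6), and 6820 ± 456 in HT (n = 5) and 6650 ± 842 in WT PFC (n = 6). Its total level was thus not lower in the libraries labelled heterozygote, and every direction below rests on the labels alone. In whole tissue, fewer cells of a type and less RNA per cell cannot be told apart.

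All 33 members are protein-coding, and they are long genes. Their median span was 115 kb and their median exon length 13.2 kb, against 25.0 kb and 4.40 kb over the 15399 protein-coding genes of the table. Another gene of the table overlaps 12 of them (Chd2, Adnp, Kmt2a, Kmt2e, Ash1l, Mbd5, Ehmt1, Trip12, Phf12, Phf2, Wac and Auts2), so their reads may be shared and their values are less certain. Divided by exon length, members had a median WT level of 201 normalized counts per kb in striatum, 231 in hippocampus and 233 in PFC, against 135, 137 and 138 over all protein-coding genes with a mean of at least 10. Chd3, a nucleosome remodeller of the NuRD complex, was the most abundant per kb in WT, with 1770 in striatum, 2470 in hippocampus and 1941 in PFC. Asxl3, a relative of the Polycomb-linked ASXL scaffolds, was the least abundant, with 24.1, 26.7 and 28.4 per kb in the same order. Libraries of a group differed little for most members, with a median coefficient of variation of 5.61% to 7.22% over the 6 groups, against 7.10% to 8.57% over all genes with a mean of at least 100. The genes compared were not matched for level.

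Promoter windows were available for 22 of the 33 members, as 28 windows of 300 bases from RefSeq (GRCm38.p6), each running from 250 bases before a start site to 50 after it. Members' windows were rich in CG dinucleotides, with a median of 28 per window against 7 over 32851 windows of all genes. At least 15 CG dinucleotides stood in 23 of the 28 windows (82.1%), against 34.6% of all windows. Phf21a has a pair of such windows on chromosome 2 that differ sharply in sequence, and they are shown with those of Med13l and Bcl11a, both lower in striatum than in PFC. Each lies on the plus strand and reads 5′ to 3′, and capitals mark CG dinucleotides.
Phf21a, chr2:92185233-92185532: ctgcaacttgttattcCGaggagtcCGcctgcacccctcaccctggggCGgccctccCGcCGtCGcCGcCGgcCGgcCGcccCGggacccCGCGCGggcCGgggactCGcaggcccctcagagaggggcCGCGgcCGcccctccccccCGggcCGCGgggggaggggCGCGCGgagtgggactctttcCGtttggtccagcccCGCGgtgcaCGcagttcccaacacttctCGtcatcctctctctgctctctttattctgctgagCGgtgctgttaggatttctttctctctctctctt
Phf21a, chr2:92221222-92221521: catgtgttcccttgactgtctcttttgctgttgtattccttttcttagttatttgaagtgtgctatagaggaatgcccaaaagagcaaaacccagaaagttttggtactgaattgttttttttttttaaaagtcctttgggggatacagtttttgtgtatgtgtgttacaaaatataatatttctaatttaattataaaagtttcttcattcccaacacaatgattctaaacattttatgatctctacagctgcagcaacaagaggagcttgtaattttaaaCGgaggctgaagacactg
Med13l, chr5:118560469-118560768: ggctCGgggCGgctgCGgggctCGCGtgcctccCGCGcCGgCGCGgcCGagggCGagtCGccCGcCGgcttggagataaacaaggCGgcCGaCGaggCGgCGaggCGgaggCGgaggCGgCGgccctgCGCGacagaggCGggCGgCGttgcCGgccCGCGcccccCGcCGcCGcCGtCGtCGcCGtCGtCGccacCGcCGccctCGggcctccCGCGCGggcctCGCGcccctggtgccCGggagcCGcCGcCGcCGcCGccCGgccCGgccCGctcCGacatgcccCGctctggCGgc
Bcl11a, chr11:24080445-24080744: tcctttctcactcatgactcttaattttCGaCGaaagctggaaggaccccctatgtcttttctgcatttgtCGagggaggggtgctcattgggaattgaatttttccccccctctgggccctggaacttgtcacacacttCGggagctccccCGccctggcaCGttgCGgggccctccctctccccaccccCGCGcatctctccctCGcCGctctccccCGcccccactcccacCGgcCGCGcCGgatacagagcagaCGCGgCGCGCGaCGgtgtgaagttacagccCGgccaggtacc
The upstream Phf21a window holds 31 CG dinucleotides and the downstream one holds 1, while Med13l has 61 and Bcl11a 23. The letters AAGTT, the core of the motif that MYT1-family zinc fingers bind in vitro, were searched on both strands and occurred in 12 of the 28 windows (42.9%), against 39.3% of all windows. Both Phf21a windows and that of Bcl11a hold these letters, and that of Med13l does not.

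Phf21a encodes BHC80, a plant-homeodomain finger protein that reads unmethylated histone tails in the LSD1-CoREST repressor complex. The gene (ENSMUSG00000058318, chr2:92093117-92364666, plus strand, GRCm38) is overlapped by no other gene of the table. In hippocampus its normalized counts were 2050, 2067, 1771, 1838 and 1821 in the 5 HT libraries, and ran over 1307, 1501 and 1737 (lowest, median and highest) in the 6 WT libraries. Every HT library lay above every WT library. The means were 1909 ± 138 in HT and 1544 ± 166 in WT hippocampus, and the log2 difference, HT minus WT, was 0.31 (SE 0.07), or 1.24-fold. The libraries of the other 32 members overlapped between the genotypes. Bcl11a overlapped only through HT replicate 1 (code 31-67M) at 2967. Its other HT libraries reached at most 2687, and the lowest WT library had 2754. Over all genes tested, 0.321% had every HT library above every WT library in hippocampus and 0.357% had every one below. Leaving out any 1 library kept the log2 difference between 0.26 and 0.35, and the 3 HT and 4 WT libraries with codes beginning 35 gave 0.28 (SE 0.10). Since the genotypes did not overlap, no such subset could reverse the sign, and these values describe the size only.

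In the other regions the genotypes overlapped. In striatum Phf21a had 1237, 1456 and 1636 normalized counts (lowest, median and highest) in HT libraries, against 1389, 1589 and 1878 in WT libraries. The log2 difference was -0.17 (SE 0.08, 95% interval -0.34 to -0.0040, adjusted p = 0.837 by limma). In PFC the HT libraries had 1097, 694, 1002, 1340 and 1234 normalized counts, against 1034, 1102 and 1477 in WT libraries. The PFC difference of -0.16 (SE 0.15, adjusted p = 0.978 by limma) rested on HT replicate 2, the library at 694, and was -0.01 without it. With any 1 library left out it ran from -0.25 to -0.01. The highest WT value, 1477, was that of replicate 6 (code 31-67M), and the next was 1293. Phf21a had its highest HT mean in hippocampus, at 1909 against 1417 in striatum and 1073 in PFC, while WT means were 1596 in striatum, 1544 in hippocampus and 1182 in PFC.

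**Figure D1:**
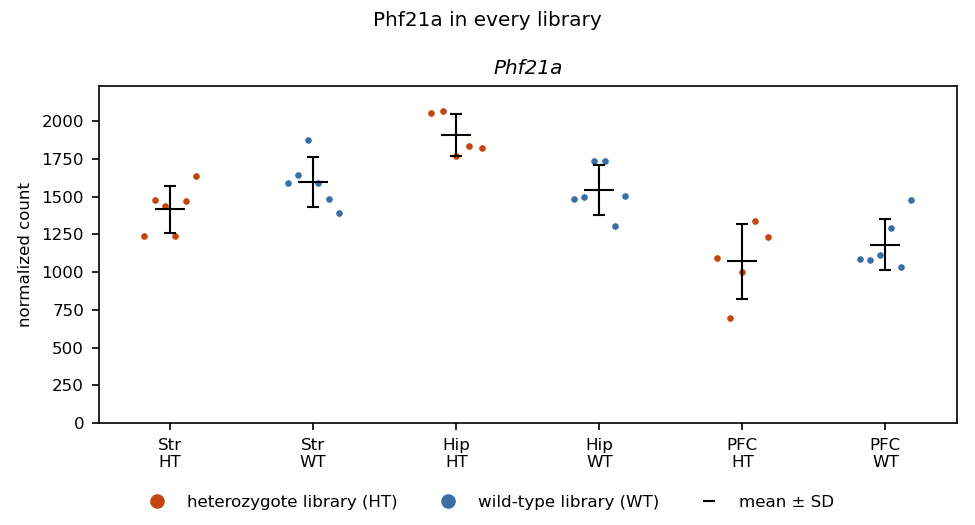
Normalized counts of Phf21a (vertical axis, from 0) in each library of the 6 groups, HT left of WT in each region; points are libraries and black marks the mean ± SD. The 5 HT hippocampal libraries lie between 1771 and 2067, above the 6 WT hippocampal libraries, while the genotypes overlap in striatum and PFC.

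Markers of neighbouring tissue varied among the hippocampal libraries. Markers of thalamus and neighbouring regions (8 of 8 detected, none at 0) summed to 3594 to 6662 normalized counts in HT and 3487 to 4655 in WT hippocampus. Markers of choroid plexus and ependyma (8 of 8, none at 0) summed to 2804 to 86086 in HT and 2438 to 65423 in WT hippocampus, and PFC projection neuron markers to 37848 to 43864 in HT and 40074 to 42159 in WT. Their part in the Phf21a difference was not tested. The means of 3 partners of BHC80 in its complex differed by less than the SD of either group. The demethylase gene Kdm1a (LSD1) averaged 1548 ± 70.7 in HT and 1495 ± 69.6 in WT hippocampus, the CoREST scaffold gene Rcor1 851 ± 36.1 in HT and 877 ± 48.2 in WT, and the HMG-box subunit gene Hmg20b 387 ± 54.8 in HT and 389 ± 39.2 in WT.

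Among the remaining members in hippocampus, the largest positive log2 difference was 0.23 (SE 0.09) for Chd2, a nucleosome remodeller, and the most negative was -0.19 (SE 0.07) for Adnp, a zinc-finger protein that works with the remodeller CHD4. Chd2 had 2024, 1908, 1970, 2236 and 2726 normalized counts in HT hippocampus and 1662, 1787 and 2118 (lowest, median and highest) in WT. Adnp had 1679, 1375, 1463, 1570 and 1528 in HT and 1535, 1665 and 2012 in WT. Both genes overlapped between genotypes. In all, 11 of the 33 members had a log2 difference above 0 in hippocampus, against 49.4% of all genes tested, and the median over members was -0.01, against 0.00 over all genes. Both values include Phf21a, whose difference here was the measured basis of the list.

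Most members were highest in hippocampus. Among the 32 members other than Phf21a, hippocampus held the highest mean for 22 in HT and 21 in WT, against 28.5% and 28.2% of all genes. It held the lowest mean for 1 member in HT (Cic) and for 0 in WT, where striatum was lowest for 16 and PFC for 16. The regional spread was modest, since the ratio of the highest to the lowest region had a median of 1.19 over these members in HT and 1.20 in WT, against 1.33 and 1.32 over all genes. Of these 32, 28 had the same highest region in both genotypes.

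**Figure D2:**
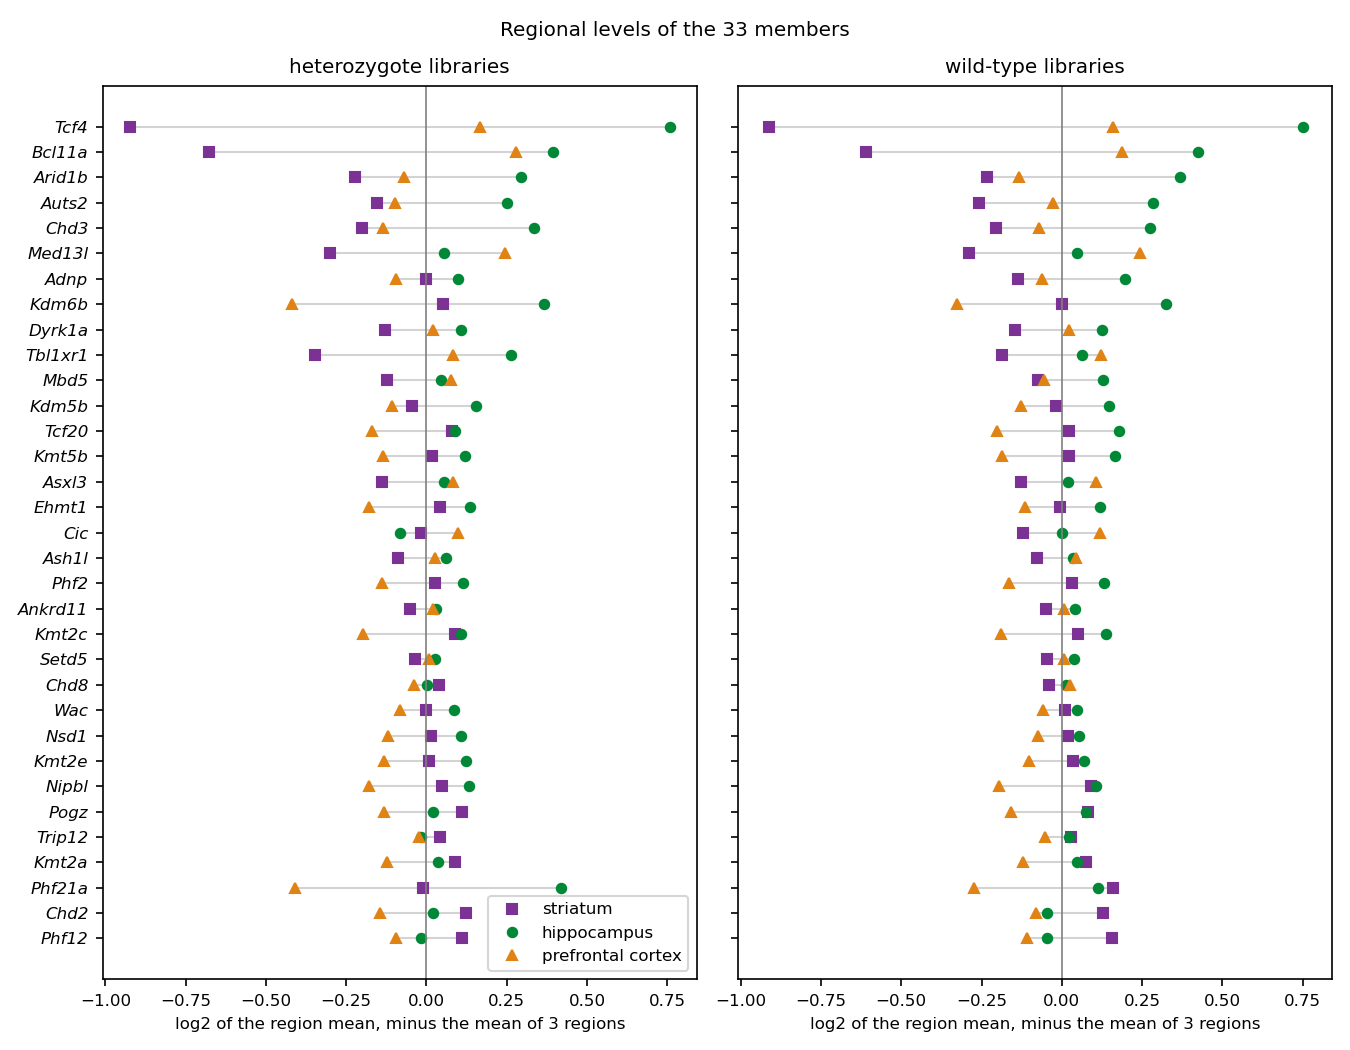
Regional means of the 33 members, as log2 of each region's mean minus the average of the 3 regions (horizontal axis), in HT libraries (left) and WT libraries (right). Green circles for hippocampus lie farthest to the right for 22 in HT and 21 in WT of the 32 members other than Phf21a, and Tcf4 has the widest spread.

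HT and WT libraries were fitted separately by limma and members counted at an adjusted p under 0.05. Of the 32 members other than Phf21a, striatum against hippocampus gave 0 higher and 13 lower in HT, and 1 higher and 15 lower in WT; over all genes 22.6% were higher and 22.7% lower in HT, and 23.9% and 23.6% in WT. Of all 33, striatum against PFC gave 11 higher and 8 lower in HT and 12 higher and 10 lower in WT, with 28.1% and 26.9% of all genes in HT and 29% and 27.7% in WT. Of the 32, hippocampus against PFC gave 16 higher and 2 lower in HT and 17 higher and 1 lower in WT, with 21.9% and 20.7% of all genes in HT and 23.6% and 22.7% in WT. Without WT PFC replicate 6 the WT count of members lower in hippocampus than in PFC was 2, and without HT hippocampal replicate 1, 4 or HT PFC replicate 5 the HT count was 1. Without HT hippocampal replicate 1 or 3, Phf12 was called higher in HT striatum, so that count was 1. Of the members lower in striatum than in hippocampus, 11 were called in both genotypes (84.6% of those in HT and 73.3% of those in WT), and of those higher in hippocampus than in PFC, 14 were (87.5% and 82.4%).

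These splits depend on the scale. When every library was set to the same total, the median of all genes moved by 0.15 in HT and 0.14 in WT for striatum against PFC, by 0.05 in both for striatum against hippocampus, and by 0.10 in HT and 0.09 in WT for hippocampus against PFC (log2). Members in striatum against PFC then split into 18 higher and 4 lower in HT and 19 higher and 3 lower in WT. All genes split into 41.8% and 18% in HT and 42.7% and 18.5% in WT. Without Phf21a, striatum against hippocampus gave 2 higher and 9 lower in HT and 1 higher and 10 lower in WT. The shares of all genes were 27.1% and 18.7% in HT and 29% and 19.6% in WT. Hippocampus against PFC, also without Phf21a, gave 22 higher and 0 lower in HT and 24 higher and 0 lower in WT. There 31.9% and 15.3% of all genes were called in HT and 34% and 16.9% in WT. In the libraries with codes beginning 35, striatum against hippocampus gave 11 lower in HT and 8 lower in WT. With the column code as a random block, every one of the 12 counts was as in the fit without it.

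Of the 5 remodelling genes, 2 were lower in striatum than in hippocampus in HT and 3 in WT, and 2 were higher in hippocampus than in PFC in each. The widest WT difference was that of Arid1b, a DNA-binding subunit of the BAF complex. Arid1b had 1842, 1922 and 2254 normalized counts (lowest, median and highest) in HT striatum, 2976, 2607, 2820, 2808 and 2896 in HT hippocampus and 2266, 2150, 2253, 2228 and 2058 in HT PFC. In WT it had 1843, 2035 and 2188 in striatum, 2678, 3122 and 3360 in hippocampus and 2022, 2117 and 2366 in PFC. In both genotypes every hippocampal library lay above all libraries of the other regions. The log2 difference of striatum against hippocampus was -0.52 in HT (SE 0.05, adjusted p = 7.77e-08) and -0.60 in WT (SE 0.06, adjusted p = 9.85e-09), and that of hippocampus against PFC was 0.36 in HT (SE 0.05) and 0.50 in WT (SE 0.06). Chd3 was also lower in striatum than in hippocampus, by -0.53 in HT and -0.48 in WT, and higher in hippocampus than in PFC, by 0.47 in HT and 0.35 in WT. Chd8, a remodeller linked to Wnt signalling and the best-known autism gene of this family, passed in no regional contrast in either genotype, with WT means of 2954 in striatum, 3063 in hippocampus and 3091 in PFC. Chd2 also passed in none, and Adnp passed only in WT striatum against hippocampus (-0.35, SE 0.11, adjusted p = 0.0123).

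The 8 SET-domain genes had small regional differences. In this group Kmt2a, Kmt2c, Ash1l, Nsd1, Kmt5b and Ehmt1 encode histone methyltransferases, and Kmt2e and Setd5 encode SET-domain proteins best known as chromatin-bound regulators. In hippocampus against PFC, 6 of 8 were higher in HT and 5 of 8 in WT, and 0 were lower. In striatum against PFC, 4 of 8 were higher in each genotype and 1, Ash1l, was lower. Kmt2c, a writer of enhancer methylation, averaged 4579 in HT striatum, 4632 in HT hippocampus and 3754 in HT PFC, and 4365, 4639 and 3701 in WT in the same order. Its difference of hippocampus against PFC was 0.30 in HT (SE 0.05) and 0.33 in WT (SE 0.04, adjusted p = 1.04e-06). The widest WT difference in this group was 0.35, for Kmt5b in hippocampus against PFC, and Setd5 passed in no regional contrast.

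Of the 9 demethylases, readers and scaffolds, 5 were higher and 1 lower in striatum than in PFC in HT, and 6 and 1 in WT. Among them Kdm6b had the widest WT regional difference. It encodes JMJD3, which removes the Polycomb mark from histones and is also known as a gene induced by stimuli. Kdm6b had 877, 1173 and 1233 normalized counts (lowest, median and highest) in HT striatum, 1642, 1395, 1438, 1270 and 1253 in HT hippocampus and 923, 803, 970, 670 and 698 in HT PFC. In WT it had 934, 1013 and 1221 in striatum, 1187, 1302 and 1438 in hippocampus and 740, 839 and 892 in PFC. In both genotypes hippocampal libraries were all above those of the PFC. The difference of hippocampus against PFC was 0.79 in HT (SE 0.11, adjusted p = 1.07e-05) and 0.65 in WT (SE 0.06, adjusted p = 1.43e-08), and that of striatum against PFC was 0.48 in HT (SE 0.11) and 0.33 in WT (SE 0.06).

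Phf21a was higher in striatum than in PFC, by 0.43 in HT (SE 0.13, adjusted p = 0.00882) and by 0.44 in WT (SE 0.09, adjusted p = 0.000202); without PFC HT replicate 2 the HT value was 0.28 and its adjusted p 0.0123. Phf12, a plant-homeodomain protein of Sin3 repressor complexes, was the 1 member higher in striatum than in hippocampus in WT. It had 1591, 1642 and 1687 in HT striatum (lowest, median and highest) and 1606, 1445, 1607, 1483 and 1377 in HT hippocampus, and 1465, 1713 and 1784 in WT striatum and 1249, 1500 and 1556 in WT hippocampus. The regions overlapped, and the log2 difference was 0.13 in HT (SE 0.05, adjusted p = 0.0632) and 0.20 in WT (SE 0.07, adjusted p = 0.0154). Pogz, a zinc-finger protein that binds heterochromatin protein HP1, was higher in striatum than in PFC by 0.24 in both genotypes. Phf2, a plant-homeodomain demethylase, was higher there by 0.16 in HT and 0.20 in WT. Asxl3, Ankrd11, a large ankyrin-repeat coregulator, and Mbd5, a methyl-CpG-binding domain protein of the Polycomb deubiquitinase complex, differed by at most 0.234 (log2, in size) between all pairs of regions in both genotypes. Mbd5 was called lower in striatum than in hippocampus in both genotypes, lower in HT striatum than in PFC and higher in WT hippocampus than in PFC. Asxl3 was called lower in WT striatum than in PFC, and Ankrd11 lower in WT striatum than in hippocampus.

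The 8 transcription factors and coregulators held the widest differences of striatum from the other regions, and 5 of them were lower in striatum than in hippocampus in each genotype. Tcf4, a basic helix-loop-helix factor and the Pitt-Hopkins syndrome gene in humans, had 3851, 4585 and 5527 normalized counts (lowest, median and highest) in HT striatum, 14789, 14682, 14584, 15718 and 13276 in HT hippocampus and 9897, 9118, 10076, 9862 and 9529 in HT PFC. In WT it had 4109, 4460 and 5693 in striatum, 14362, 14534 and 15921 in hippocampus and 9184, 9782 and 10569 in PFC. No library of a region overlapped with another region. Striatum was below hippocampus by -1.69 in HT (SE 0.07, adjusted p = 1.18e-12) and -1.67 in WT (SE 0.06, adjusted p = 1.57e-15), and below PFC by -1.10 in HT (SE 0.07) and -1.08 in WT (SE 0.06). Hippocampus was above PFC by 0.59 in HT (SE 0.08) and 0.60 in WT (SE 0.06).

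Bcl11a encodes a zinc-finger repressor that acts in cortical projection neurons and associates with BAF complexes. It had 1068, 1282 and 1683 normalized counts (lowest, median and highest) in HT striatum, 2967, 2687, 2633, 2677 and 2579 in HT hippocampus and 2451, 2654, 2639, 2429 and 2331 in HT PFC. In WT it had 1142, 1440 and 1632 in striatum, 2754, 2912 and 3088 in hippocampus and 2389, 2482 and 2524 in PFC. All striatal libraries were below the others. The difference of striatum against hippocampus was -1.09 in HT (SE 0.09, adjusted p = 8.26e-09) and -1.04 in WT (SE 0.07, adjusted p = 1.45e-11), and that of striatum against PFC -0.97 in HT (SE 0.09) and -0.81 in WT (SE 0.07). The striatal libraries with the highest Tcf4 and Bcl11a were HT replicate 1 and WT replicate 5. The same 2 libraries had the highest summed PFC projection neuron markers of their groups, at 14287 in HT replicate 1 and 15309 in WT replicate 5. The part of these markers in the regional differences was not tested.

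Med13l, a subunit of the Mediator kinase module, was the 1 member lower in hippocampus than in PFC in both genotypes. It had 2444, 2622 and 2960 normalized counts (lowest, median and highest) in HT striatum, 3771, 3375, 3361, 3090 and 3248 in HT hippocampus and 3802, 3624, 3949, 3883 and 3947 in HT PFC. In WT it had 2431, 2692 and 3181 in striatum, 3286, 3482 and 3539 in hippocampus and 3607, 3924 and 4436 in PFC. The WT regions did not overlap. Hippocampus was below PFC by -0.19 in HT (SE 0.06, adjusted p = 0.01) and -0.19 in WT (SE 0.06, adjusted p = 0.00726), and with libraries set to the same total it was -0.10 in each, with an adjusted p of 0.134 in HT and 0.097 in WT. Striatum was below PFC by -0.55 in HT (SE 0.05) and -0.54 in WT (SE 0.06). Nipbl, which loads cohesin onto DNA, was lowest in PFC. It had 2065, 2141 and 2280 in HT striatum, 2313, 2095, 2294, 2282 and 2368 in HT hippocampus and 1802, 1695, 1912, 1928 and 1813 in HT PFC, and 2063, 2164 and 2225 in WT striatum, 2070, 2181 and 2257 in WT hippocampus and 1736, 1764 and 1791 in WT PFC. No PFC library reached the other regions. Its difference of striatum against PFC was 0.23 in HT (SE 0.04) and 0.28 in WT (SE 0.03, adjusted p = 1.42e-07).

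**Figure D3:**
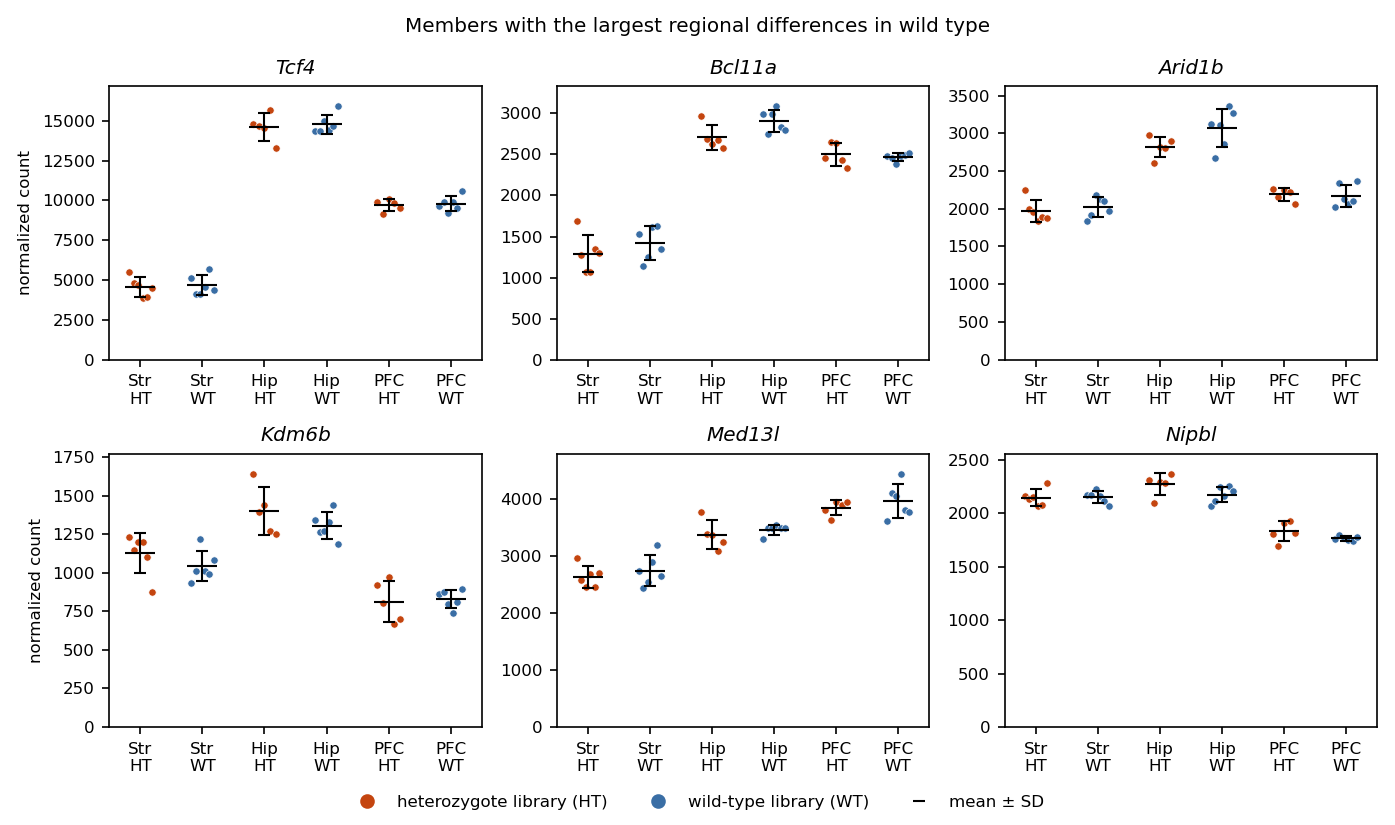
Normalized counts (vertical axes, from 0) of 6 members in every library of the 6 groups, HT left of WT within each region; points are libraries and black marks the mean ± SD. Tcf4 and Bcl11a are lowest in striatum, Arid1b is highest in hippocampus, Kdm6b and Nipbl are lowest in PFC and Med13l is highest in PFC.

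The other members of this group differed less between striatum and the other regions than Tcf4 and Bcl11a did. Auts2, a regulator of non-canonical Polycomb complexes and of neuronal migration, was lower in striatum than in hippocampus by -0.40 in HT and -0.55 in WT. Tcf20, a transcriptional coregulator, was higher in hippocampus than in PFC by 0.26 in HT and 0.38 in WT. Tbl1xr1, a subunit of the NCoR corepressor complex, was lower in striatum than in PFC by -0.43 in HT and -0.31 in WT. Cic, the HMG-box repressor Capicua, was lower in striatum than in PFC only by the WT call (-0.24, SE 0.06, adjusted p = 0.00105), with -0.12 in HT (SE 0.06, adjusted p = 0.099); the difference between genotypes was not tested. The last group has 3 members, a ubiquitin ligase, an adaptor and a kinase. Its kinase gene Dyrk1a, located on human chromosome 21, was lower in striatum than in both other regions in both genotypes, by -0.15 to -0.28. Wac, an adaptor for histone ubiquitylation, passed only in HT hippocampus against PFC (0.17, SE 0.06, adjusted p = 0.0401), and Trip12, a ubiquitin ligase, passed in no regional contrast.

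Cell-type marker sums differed between the same regions. Neuronal markers (8 of 8 detected, none at 0) summed to 130760 to 155907 in HT striatum, 169813 to 184757 in HT hippocampus and 226177 to 239822 in HT PFC, and to 133128 to 153202, 178346 to 188139 and 221845 to 245901 in WT in the same order. Oligodendrocyte markers (8 of 8, none at 0) summed to 247579 to 292191 in HT striatum, 135500 to 179534 in HT hippocampus and 118093 to 134104 in HT PFC, and to 221537 to 270128, 147315 to 192627 and 88309 to 139117 in WT. Their part in the regional differences was not tested.

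The genes that share complexes with the members were read from a list of 98 partners. In WT, 15 of 98 were higher and 39 lower in striatum than in hippocampus, 31 higher and 29 lower in striatum than in PFC, and 35 higher and 17 lower in hippocampus than in PFC. As shares these were 15.3% and 39.8%, 31.6% and 29.6%, and 35.7% and 17.3% in the same order, against 23.9% and 23.6%, 29% and 27.7%, and 23.6% and 22.7% of all genes. At equal library totals the WT partners split into 21 higher and 28 lower, 56 higher and 13 lower, and 65 higher and 15 lower. On that scale 29% and 19.6%, 42.7% and 18.5%, and 34% and 16.9% of all genes were higher and lower. Foxp1, a forkhead factor of striatal projection neurons, averaged 3609 ± 744 in HT and 4016 ± 658 in WT striatum, against 1990 ± 289 in HT and 1882 ± 131 in WT hippocampus. Tbl1x, the X-linked relative of Tbl1xr1, had means of 2763 ± 55.7 in WT striatum, 1589 ± 39.5 in WT hippocampus and 2266 ± 109 in WT PFC. Striatum was above hippocampus for Tbl1x by 0.80 in WT (SE 0.04, adjusted p = 2.45e-14), whereas Tbl1xr1 had -0.26 there (SE 0.11, adjusted p = 0.0573). Bcl11b, the relative of Bcl11a known in striatal and deep-layer cortical neurons, was above PFC by 1.14 in HT striatum (SE 0.10, adjusted p = 1.22e-08) and by 1.30 in HT hippocampus (SE 0.10, adjusted p = 8.62e-09). Chd7, a relative of Chd8, was above PFC by 0.65 in both WT striatum and WT hippocampus (SE 0.14 each), and Chd8 passed in neither contrast. Tbr1, a T-box factor of cortical projection neurons, was lower in WT striatum by -2.93 against PFC (SE 0.38, adjusted p = 4.78e-06) and by -1.50 against hippocampus (SE 0.38, adjusted p = 0.00346).

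Between genotypes, no member passed the test in striatum or PFC, nor did any other gene. In striatum limma called 0 of 33 members and 0% of 17054 genes; at an unadjusted p under 0.05 it counted 2 members, Chd8 and Phf21a, and 1004 genes (5.89%). In PFC it called 0 of 33 members and 0% of 16667 genes, with 2 members, Mbd5 and Chd3, and 833 genes (5%) at an unadjusted p under 0.05. Neither region had a member whose libraries separated by genotype, against 0.141% of genes higher and 0.258% lower in HT striatum and 0.198% higher and 0.264% lower in HT PFC. In PFC the overlap of Mbd5 and of Chd3 rested on WT replicate 6 (code 31-67M). Without that library both separated by genotype, and the share of all genes that then separate is not given. The number of members with a log2 difference above 0 was 15 of 33 in striatum and 13 of 33 in PFC, against 48.4% and 48.7% of all genes. All 33 members had a 95% interval within 0.5 of 0 in each region (log2), and 26 in striatum and 29 in PFC within 0.3. On simulated data of this size, with 100 genes changed by 0.5, the same fit recovered 54% of them in striatum and 64% in PFC. The adjusted p depends on how many genes change, so these shares do not give the recovery of a few changed members.

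**Figure D4:**
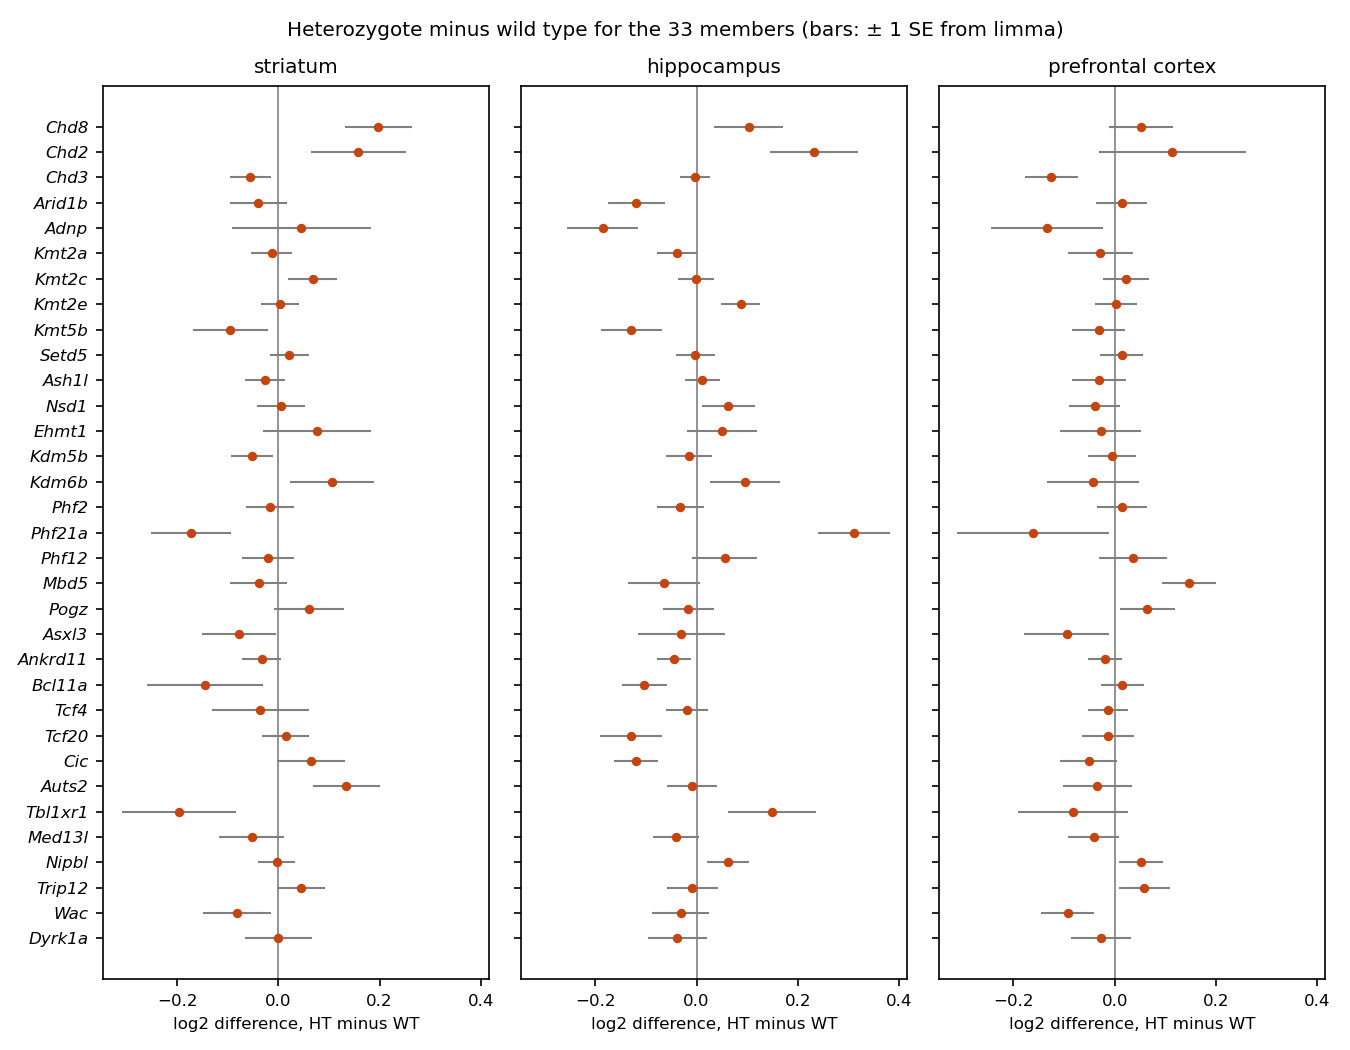
Log2 difference, HT minus WT, of the 33 members (horizontal axes) in striatum, hippocampus and prefrontal cortex; points are limma estimates and bars ± 1 SE, and members run down the page by role. Most points lie within 0.2 of 0, and Phf21a stands at 0.31 in hippocampus, against -0.17 in striatum and -0.16 in PFC.

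The smallest p in striatum was that of Chd8. It had 3204, 3312 and 3721 normalized counts (lowest, median and highest) in HT striatum and 2490, 2937 and 3439 in WT striatum, so 6 of 6 HT libraries lay above the WT mean of 2954 while the groups overlapped. The log2 difference was 0.20 (SE 0.07, 95% interval 0.06 to 0.34), with an adjusted p of 0.72 by limma and an unadjusted p of 0.0195 by a 2-sided exact permutation test. The permutation p uses the same libraries and does not allow for the choice of Chd8 among 33 members. The log2 difference is followed over subsets next. It was 0.16 in the libraries with codes beginning 35 and 0.15 to 0.24 with any 1 library left out. Auts2 had 2152, 2326 and 2594 in HT striatum and 1849, 2183 and 2474 in WT, with a difference of 0.13 (SE 0.07, adjusted p = 0.857). The most negative estimate was that of Tbl1xr1, at -0.20 (SE 0.11, adjusted p = 0.877).

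The smallest p in PFC was that of Mbd5. It had 2056, 2120, 2301, 2233 and 2077 normalized counts in HT PFC and 1753, 1959 and 2127 (lowest, median and highest) in WT PFC, so 5 of 5 HT libraries lay above the WT mean of 1950 while the groups overlapped. The overlap came from WT replicate 6 (code 31-67M) at 2127, and the other WT libraries reached at most 2054. The log2 difference was 0.15 (SE 0.05, 95% interval 0.03 to 0.26), with an adjusted p of 0.977 by limma and an unadjusted p of 0.026 by a 2-sided exact permutation test. Here too the permutation p does not allow for the choice of Mbd5 among 33 members. The libraries with codes beginning 35 gave 0.19. Chd3 had 15728, 14813, 13700, 15425 and 15345 in HT PFC and 14146, 16530 and 18007 in WT PFC, with a difference of -0.13 (SE 0.05, adjusted p = 0.977). Its overlap also came from WT replicate 6, at 14146, with the other WT libraries at 16194 or more. Wac had 3033, 2940, 2794, 3040 and 2836 in HT PFC and 2832, 3152 and 3402 in WT PFC, with -0.09 (SE 0.05, adjusted p = 0.977), and -0.03 in the libraries with codes beginning 35.

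**Figure D5:**
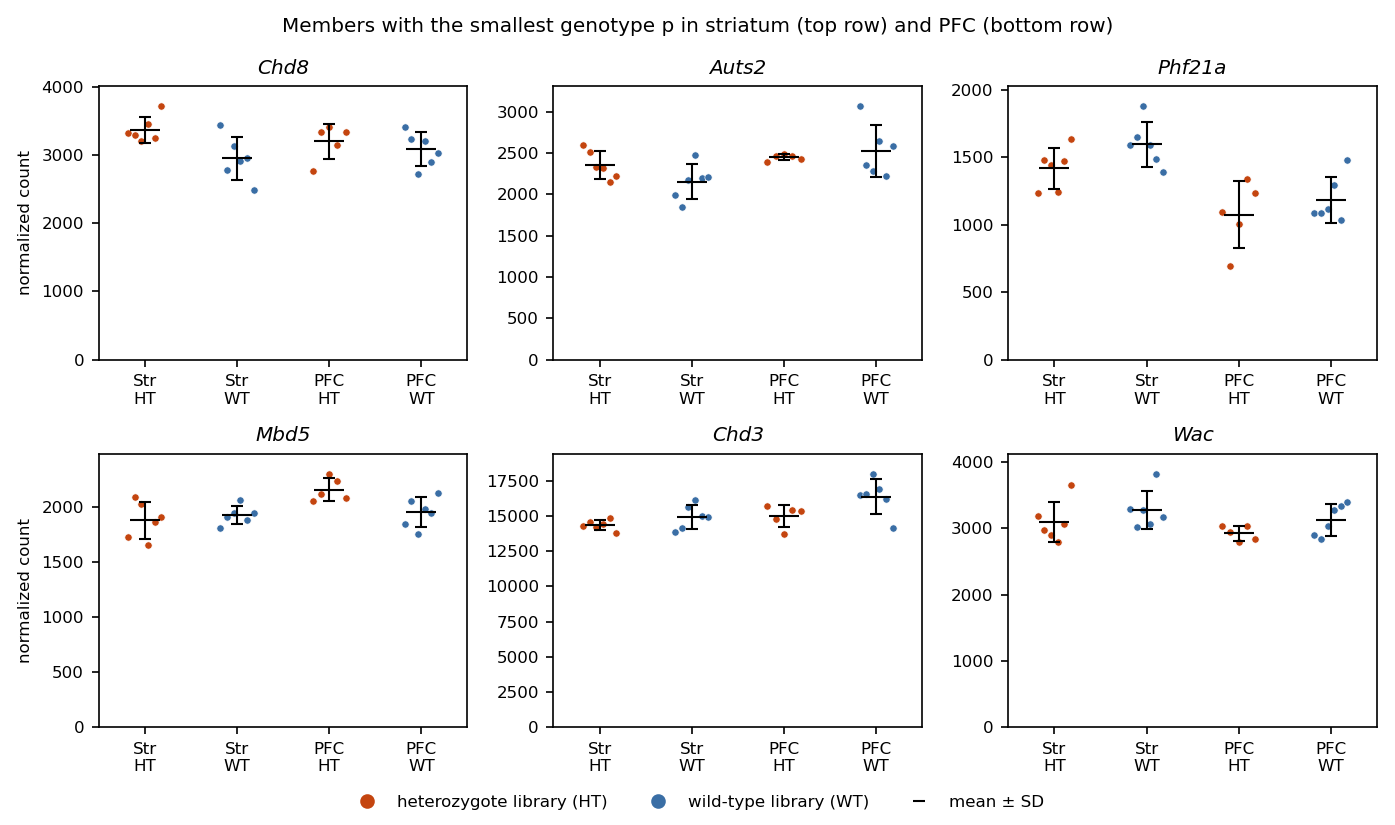
Normalized counts (vertical axes, from 0) in striatal and PFC libraries of the 3 members with the smallest genotype p in striatum (top row) and in PFC (bottom row), HT left of WT; points are libraries and black marks the mean ± SD. HT and WT libraries overlap in every panel, in PFC for Mbd5 and Chd3 only through WT replicate 6.

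The genotype differences of striatum and PFC were also set against each other in 1 fit. Limma called 0 of 33 members and 0% of 17045 genes, and 1 member and 590 genes (3.46%) had an unadjusted p under 0.05. That member was Mbd5, with -0.04 in striatum and 0.15 in PFC, a difference between regions of -0.19 (SE 0.08, 95% interval -0.35 to -0.02, adjusted p = 0.999). In striatum Mbd5 had 1658, 1883 and 2085 normalized counts in HT libraries and 1810, 1925 and 2063 in WT libraries.

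Of the 98 partner genes, limma called 0 in striatum and 0 in PFC, with 5 and 3 at an unadjusted p under 0.05. In striatum the smallest p values were those of Hmg20b, with 353 ± 39.8 in HT and 304 ± 20.8 in WT (log2 difference 0.21, SE 0.08, adjusted p = 0.805), and of Ss18, a BAF subunit, with 1039 ± 81.5 in HT and 946 ± 26.8 in WT (0.13, SE 0.05, adjusted p = 0.807). In PFC they were those of Atxn1, a partner of Cic, with 2681 ± 149 in HT and 2900 ± 133 in WT (-0.11, SE 0.05, adjusted p = 0.977), and again of Ss18, with 911 ± 47.1 in HT and 826 ± 54.1 in WT (0.14, SE 0.06, adjusted p = 0.977).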

How the data were processed

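RNA-seq libraries from 3 brain regions were analysed from 1 deposited table. Its signal values are normalized counts made by the authors, as deposited, with samples mapped through the column names (unused columns 0). Salmon 1.1.0, R 3.6.2, DESeq2 1.26.0 and GRCm38 are named in the submitters' processing notes, with no role or order given. Because 98.8% of values were not whole (tolerance 0.001), no count test was run and raw depth is unknown. Values were taken as log2(value + 1), genes with a mean of at least 10 over the compared libraries were kept, and limma 3.58.1 (R 4.3.3, moderated, with trend and robust settings) was fitted over all genes. P-values are 2-sided and Benjamini-Hochberg adjusted over all genes tested, with a threshold of 0.05. HT was compared with WT in each region, and regions within each genotype, with Phf21a left out of the counts over members in hippocampal contrasts, a choice made after the values were seen. Symbols came from GENCODE M21 and promoter windows from RefSeq GRCm38.p6. Plots and other values used Python 3.11.15.

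Members, role groups, partner and marker lists were chosen with earlier results of these data known. Values of selected members are given by library, as lowest, median and highest of 6 libraries, or in a figure. These are Phf21a, the 3 members with the smallest genotype p in striatum and in PFC, and the smallest p in the difference between them. They also include up to 3 members highest and 3 lowest in each WT regional contrast. Partners were named as the 2 with the smallest genotype p per region, or the 2 highest and 2 lowest per regional contrast, of which 1 is not reported here; other members were chosen after their values were seen. On simulated data for the genotype contrasts, 54% of 100 genes changed by 0.5 and 86% of 100 changed by 1 (log2) were recovered in striatum among 17054 genes, and 64% and 82% in PFC among 16667. Alternatives were other pseudocounts and filters, limma without trend, equal library totals, replicate and code blocks, libraries whose code begins with 35, and each library left out.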

Additional observations from a re-analysis of the deposited data

Results flagged for a closer look

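Among 204 groups of 5 or 6 libraries (34 genes, 6 groups), 8 held a library that stood apart from the others by Dixon's criterion, where chance gives about 1 in 20. Chd2 had 2652 normalized counts in WT PFC replicate 5, while the other 5 libraries of that group lay between 1589 and 1648. Tbl1xr1 had 2815 in WT PFC replicate 3, the highest of its group, and Pogz had 1472 in HT PFC replicate 3, the lowest of its group. In striatum, Kdm6b had 877 in HT replicate 6, the lowest of its group, and Wac had 3825 in WT replicate 5, the highest of its group. In hippocampus, Bcl11a had 2967 in HT replicate 1, the highest of its group, Kmt2c had 5013 in WT replicate 3, the highest, and Med13l had 3286 in WT replicate 1, the lowest.

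For Mbd5 and Auts2, the HT libraries of 1 region all lay on one side of the WT mean and those of another region on the other side. Lying all on one side within a region was shared by other members. Chd3 had 0 of 6 HT libraries above the WT mean in striatum and 0 of 5 in PFC, Tbl1xr1 0 of 6 in striatum and Nsd1 5 of 5 in hippocampus. The share of all genes with either pattern is not given. HT libraries above the WT mean numbered 0 of 5 for Mbd5 in hippocampus and 5 of 5 in PFC, with log2 differences of -0.06 (SE 0.07) in hippocampus and 0.15 (SE 0.05) in PFC, and the difference between them was not tested. For Auts2 they numbered 6 of 6 in striatum and 0 of 5 in PFC. The PFC difference of Auts2 was -0.03 (SE 0.07), with medians of 2464 in HT and 2463 in WT, and it was 0.0236 without WT PFC replicate 1. The difference of the Auts2 genotype effects, striatum minus PFC, was 0.17 (SE 0.10, adjusted p = 0.999 by limma).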

How the results depend on the processing

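Of 2242 alternative values, 2196 kept their direction and their side of the threshold, or stayed within 1.5 times for counts; 6 lost a call, 9 gained one, 30 counts moved and 1 value reversed. The cause was not tested. The reversed value was Auts2 in PFC, at -0.03, which ran from -0.0696 to 0.0236 with 1 library left out and was 0.0236 without WT PFC replicate 1. With libraries set to the same total, members higher in striatum than in PFC numbered 18 in HT and 19 in WT. Those lower numbered 4 in HT and 3 in WT. Members lower in hippocampus than in PFC numbered 0 in both (Phf21a left out of hippocampal contrasts). Members higher in striatum than in hippocampus numbered 2 in HT, and 1 gene was higher in HT hippocampus. Shares of all genes at equal totals are given above with the regional counts. In the libraries with codes beginning 35, members lower in WT striatum numbered 8 against hippocampus and 6 against PFC, and those lower in hippocampus than in PFC 1 in HT and 2 in WT. In the same libraries 2 genes were lower in HT striatum, 1 in HT PFC and 1 in HT hippocampus, where 1 was higher.

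With 1 library left out, genes called between genotypes ranged from 0 to 1 higher in striatum (1 without HT replicate 2), from 0 to 1 in each direction in PFC (1 without HT replicate 2), and from 0 to 2 in each direction in hippocampus (without HT replicate 1 or WT replicates 2, 3 and 6). Members lower in hippocampus than in PFC ranged from 1 to 2 in both genotypes, and members higher in striatum than in hippocampus from 0 to 1 in HT.

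Replicate numbers were not treated as a pairing, since in no comparison did every same-numbered pair correlate above 0.1 and the labels do not say what the column codes stand for. Same-numbered libraries often had different codes, so this check could not show a pairing by code. In HT striatum and hippocampus 2 of 5 same-numbered pairs shared a code, with r of 0.305 and 0.128, and both correlated best with their own number. In WT striatum and hippocampus same-numbered libraries shared a column code in 6 of 6 pairs, with r of 0.0385 to 0.105, and 4 of 6 correlated best with their own number. With the replicate block that comparison called 1 of 32 members higher and 15 lower, as without it, and 0 genes were called between genotypes.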
